A study of Mus musculus with 11 samples.

Results

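The 10 genes described here belong to the class I antigen presentation pathway: the light chain gene B2m, the heavy chain genes H2-K1 and H2-D1, the peptide transporter and loading genes Tap1, Tap2 and Tapbp, the immunoproteasome subunit genes Psmb8, Psmb9 and Psmb10, and the regulator gene Nlrc5. They were found by matching the RefSeq accessions of the array's probes to mouse gene symbols. All 10 had a probe, 12 probes in all, and all 10 were among the 16277 genes tested. Expression was measured on 11 Agilent 1-colour arrays, 1 for each sample of unsorted mouse embryonic stem (ES) cells of the 129/Ola background. There were 5 arrays of 2i/LIF, 3 of KOSR/LIF and 3 of serum/LIF. Cells had been kept in their medium for at least 3 passages. All media held leukaemia inhibitory factor (LIF), which sustains self-renewal. The 2i medium adds an inhibitor of the kinase MEK and one of the kinase GSK3, KOSR is a defined serum replacement, and serum/LIF is the standard medium. Cells came from the lines E14, HVJu5.1 and HVJu9.3. KOSR/LIF and serum/LIF had 1 sample of each line, and for 2i/LIF replicates 1 to 4 the line in the title is not the line in the source name. The series title asks which developmental states the media support.

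Class I molecules show peptides from inside the cell to cytotoxic T cells. The proteasome cuts proteins into peptides, and in immune cells and after interferon gamma the catalytic subunits encoded by Psmb8, Psmb9 and Psmb10 replace the standard ones encoded by Psmb5, Psmb6 and Psmb7. The transporter made of TAP1 and TAP2 carries the peptides into the endoplasmic reticulum, where tapasin, the Tapbp product, helps to load them onto a heavy chain paired with beta-2-microglobulin. NLRC5 is a transactivator of class I promoters. ES cells are known for low surface levels of class I molecules.

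Levels below are log2 intensities relative to the 75th percentile of each array, so a level of 0 is as bright as that percentile. They compare samples for 1 probe and do not rank different genes. KOSR/LIF replicate 3 stood apart: 43.7% of its probes were well above background, against 53.7% to 72.6% on the other 10 arrays, and its 75th percentile of intensity was 65.3, against 176 to 538. Across the genes tested, its Pearson's r with the other arrays was 0.895 to 0.936. All 10 ES cell markers examined, among them Pou5f1, Nanog and Zfp42, were well above background on all 11 arrays. The table of processed values that the authors deposited beside the scanner files did not match its labels throughout. Its columns for 2i/LIF replicates 1 and 4 matched each other's scanner arrays, as did those for KOSR/LIF replicates 1 and 2, and its KOSR/LIF replicate 3 column matched no scanner array well (highest r 0.521). Results therefore rest on the scanner files.

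In 2i/LIF against serum/LIF, 8 of the 10 genes passed as lower and none as higher. All 10 changes were negative, but those of Tapbp (-0.04) and Nlrc5 (-0.03) were smaller than their SE. Of all genes tested, 9.98% passed as lower in this comparison. The 10 genes were chosen with earlier results of these data known, so they are no independent sample of all genes. The decreases were deepest in the immunoproteasome genes Psmb8 and Psmb9 and the transporter gene Tap2. Tapbp did not pass, nor did Nlrc5 on the probe with the higher mean over all arrays. The other Nlrc5 probe passed as lower in a fit over probes. The median log2 change of the 10 genes was -1.39, beside 0.03 over all genes. For the 8 genes that passed, every 2i/LIF array lay below every serum/LIF array, as it did for 14% of all genes. Fewer expressing cells and less RNA per cell cannot be told apart in these bulk samples.

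**Figure D1:**
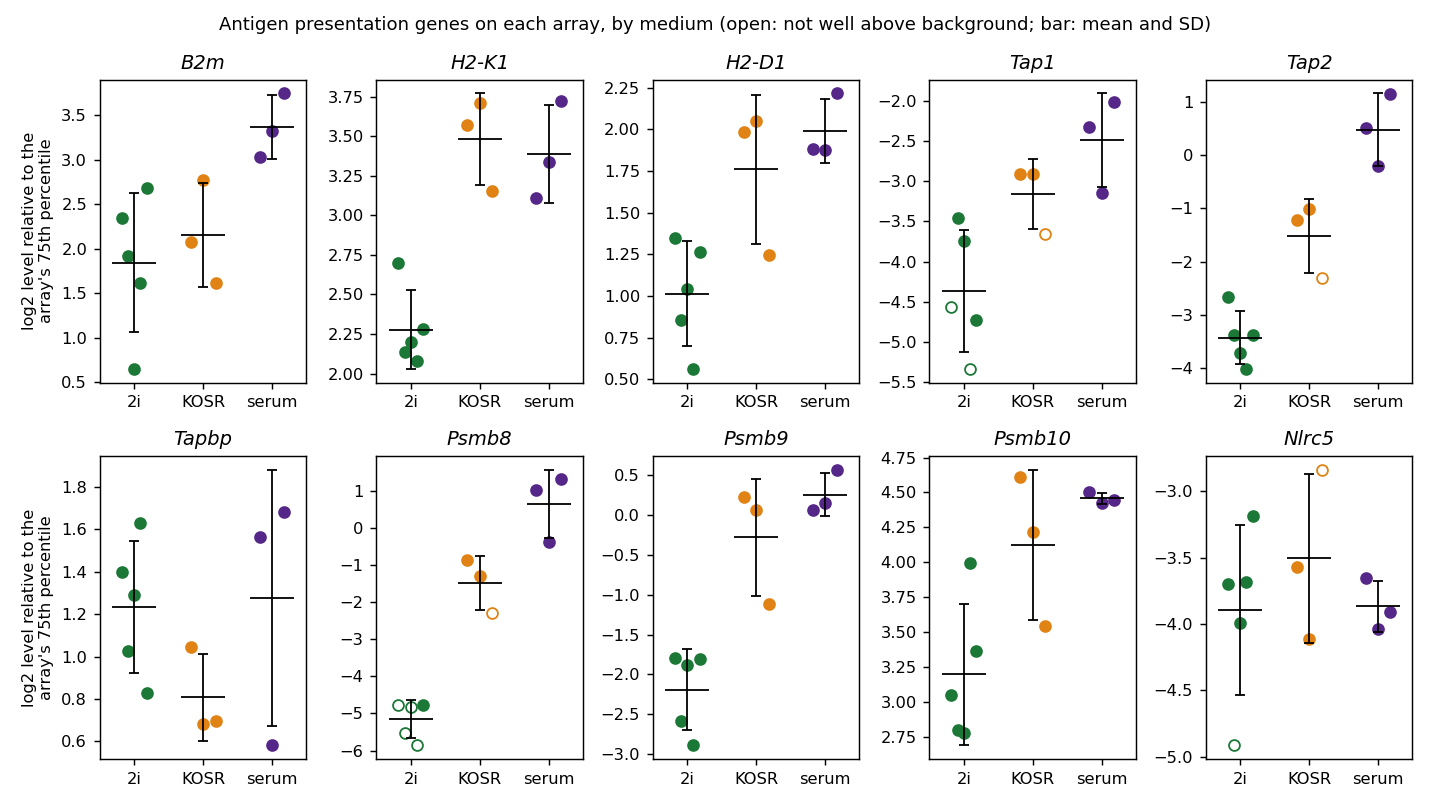
Each panel plots 1 gene, with the log2 level relative to the array's 75th percentile on the vertical axis (scales differ between panels) and the 5 arrays of 2i/LIF, 3 of KOSR/LIF and 3 of serum/LIF as points from left to right; open points were not well above background, and black bars give the mean and SD. Psmb8 lay between -5.86 and -4.76 in 2i/LIF and between -0.38 and 1.32 in serum/LIF, whereas the media overlapped for Tapbp and Nlrc5.

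B2m encodes beta-2-microglobulin, the light chain that all classical class I molecules need. Its levels were 2.34, 1.92, 0.65, 1.62 and 2.68 on 2i/LIF replicates 1 to 5, 2.08, 2.77 and 1.61 in KOSR/LIF, and 3.04, 3.32 and 3.75 in serum/LIF. The 2i/LIF and KOSR/LIF arrays overlapped, and all 8 lay below the serum/LIF arrays. The log2 change of B2m in 2i/LIF against serum/LIF was -1.53 ± 0.43 (SE, adjusted p = 0.029), a 2.88-fold decrease. Within scan day 1 (2 arrays per medium) the change was -2.05, and within scan day 3 (2 of 2i/LIF and 1 of serum/LIF) it was -1.23 and did not pass. The call was also lost without serum/LIF replicate 1, 2 or 3 (adjusted p = 0.057, 0.084 and 0.13), without 2i/LIF replicate 4 (adjusted p = 0.059) or with no filter on dim probes (adjusted p = 0.052).

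H2-K1 encodes the heavy chain of the classical molecule H-2K and was read by 2 probes. On the brighter probe the levels were 2.70, 2.13, 2.20, 2.08 and 2.28 in 2i/LIF, 3.57, 3.71 and 3.15 in KOSR/LIF, and 3.11, 3.34 and 3.72 in serum/LIF. The 2i/LIF arrays lay below all others, and KOSR/LIF and serum/LIF shared a range. The log2 change in 2i/LIF against serum/LIF was -1.11 ± 0.24 (adjusted p = 0.0065), and the other probe gave -1.04 ± 0.29 (adjusted p = 0.031 in a fit over probes). Within scan days 1 and 3 the change on the brighter probe was -1.08 and -1.23, and the value within scan day 3 did not pass.

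H2-D1, the gene of the classical heavy chain H-2D, had levels of 1.35, 0.86, 1.04, 0.56 and 1.26 in 2i/LIF, 1.98, 2.05 and 1.25 in KOSR/LIF, and 1.88, 1.88 and 2.22 in serum/LIF. KOSR/LIF replicate 3 fell inside the 2i/LIF range and the other KOSR/LIF arrays inside that of serum/LIF. H2-D1 fell by 0.98 ± 0.26 on the log2 scale in 2i/LIF against serum/LIF (adjusted p = 0.023). The change was -1.08 within scan day 1 and -0.91 within scan day 3, where it did not pass. The call did not hold with normexp background correction (adjusted p = 0.079), without serum/LIF replicate 1, 2 or 3 (adjusted p = 0.064, 0.059 and 0.11) or 2i/LIF replicate 4 (adjusted p = 0.051). Class I heavy chain genes are near-identical in long stretches. The probe sequences were not used here, so signal from other class I genes on these probes cannot be told apart from that of H2-K1 and H2-D1.

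The promoters of these 3 genes are shown because the genes fell together and because class I promoters are known for shared binding motifs of interferon regulatory factors (IRF), NF-kappaB and the factors of the CRE-like X2 box. Each sequence is the 250 bases before the annotated start, from RefSeq on GRCm38.p6, and capitals mark motif matches on either strand. B2m lies at chr2:122147437-122147686 (plus strand), H2-K1 at chr17:34000348-34000597 (minus strand) and H2-D1 at chr17:35262844-35263093 (plus strand).
B2m: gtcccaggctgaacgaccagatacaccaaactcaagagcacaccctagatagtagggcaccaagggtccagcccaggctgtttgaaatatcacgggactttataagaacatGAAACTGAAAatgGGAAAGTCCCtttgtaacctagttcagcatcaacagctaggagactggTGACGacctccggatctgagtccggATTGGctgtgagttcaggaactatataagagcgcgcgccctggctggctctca
H2-K1: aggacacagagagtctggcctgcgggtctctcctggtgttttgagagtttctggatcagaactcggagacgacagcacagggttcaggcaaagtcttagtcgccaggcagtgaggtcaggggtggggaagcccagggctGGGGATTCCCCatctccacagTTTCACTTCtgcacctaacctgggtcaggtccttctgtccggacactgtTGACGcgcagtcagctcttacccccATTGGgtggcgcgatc
H2-D1: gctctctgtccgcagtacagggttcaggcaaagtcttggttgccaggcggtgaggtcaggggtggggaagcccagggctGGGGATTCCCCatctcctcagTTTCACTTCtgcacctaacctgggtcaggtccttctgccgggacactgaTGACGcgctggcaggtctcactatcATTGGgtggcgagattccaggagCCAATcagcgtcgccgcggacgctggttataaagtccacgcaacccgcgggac
Going 5′ to 3′, the capitals in B2m are the interferon-stimulated response element core (GAAANNGAAA), an NF-kappaB consensus match, TGACG of the X2 box and the CCAAT box. H2-K1 and H2-D1 hold the NF-kappaB consensus as a pair of matches shifted by 1 base, an IRF core (GAANNGAAA), TGACG and CCAAT, with a further CCAAT box in H2-D1. Matches of different motifs did not overlap. The motifs were chosen with some of the sequences in view. Of 32851 promoter windows of this length, 2.98% held GAAANNGAAA, 6.31% GAANNGAAA, 3.90% the NF-kappaB consensus, 17.8% TGACG and 33.8% CCAAT. A match describes letters and is no evidence of binding.

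Psmb8 encodes the immunoproteasome subunit with chymotrypsin-like activity. Its levels were -4.78, -5.52, -4.82, -5.86 and -4.76 in 2i/LIF, -0.87, -1.30 and -2.30 in KOSR/LIF, and 1.03, -0.38 and 1.32 in serum/LIF. The 3 media did not overlap, with 2i/LIF lowest and serum/LIF highest. Psmb8 fell by 5.80 ± 0.45 on the log2 scale in 2i/LIF against serum/LIF (adjusted p = 9.51e-06), a 55.9-fold difference. The probe was well above background on 2i/LIF replicate 5 and on none of the other 2i/LIF arrays. The floor of an array is its lowest well-above-background intensity. With each 2i/LIF signal below the floor of its array set to that floor, the change was -5.08. Such a value is here called the change with dim signals raised, and only the medium with the lower mean is raised. With no signal raised, the change was -5.66 within scan day 1 and -6.10 within scan day 3, and with normexp background correction it was -2.88.

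Psmb9, the gene of the immunoproteasome subunit that replaces the one encoded by Psmb6, was at -1.80, -2.58, -1.89, -2.89 and -1.80 in 2i/LIF, 0.23, 0.06 and -1.12 in KOSR/LIF, and 0.06, 0.14 and 0.56 in serum/LIF. All 2i/LIF arrays lay below the other 6. The log2 change in 2i/LIF against serum/LIF was -2.45 ± 0.36 (adjusted p = 0.00071), or 5.45-fold, and it was -2.49 and -2.36 within scan days 1 and 3. Psmb10, whose product replaces the subunit encoded by Psmb7, was at 3.05, 2.80, 2.77, 4.00 and 3.37 in 2i/LIF, 4.61, 4.22 and 3.54 in KOSR/LIF, and 4.50, 4.42 and 4.45 in serum/LIF. The serum/LIF arrays were close together and above all 2i/LIF arrays. Psmb10 fell by 1.26 ± 0.32 on the log2 scale (adjusted p = 0.017), with -1.08 within scan day 1 and -1.24 within scan day 3, neither past the threshold. Psmb10 did not pass without serum/LIF replicate 1, 2 or 3 (adjusted p = 0.069, 0.057 and 0.059), without 2i/LIF replicates 1 and 5 together (adjusted p = 0.060) or with normexp (adjusted p = 0.055).

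The standard catalytic subunits did not pass in 2i/LIF against serum/LIF. Log2 changes were -0.30 ± 0.34 for Psmb5, -0.20 ± 0.28 for Psmb6 and 0.03 ± 0.32 for Psmb7. None of the 11 tested genes of the standard proteasome and its activators passed in any of the 3 comparisons. Their median change in 2i/LIF against serum/LIF was -0.02, within a range of -0.30 to 0.25.

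Tap1 and Tap2 encode the subunits of the peptide transporter. Tap2 was at -2.67, -3.38, -3.72, -4.01 and -3.37 in 2i/LIF, -1.21, -1.02 and -2.31 in KOSR/LIF, and 0.50, -0.21 and 1.14 in serum/LIF. As for Psmb8, the media did not overlap and KOSR/LIF lay between the others. The log2 change of Tap2 in 2i/LIF against serum/LIF was -3.91 ± 0.40 (adjusted p = 6.1e-05), and within scan days 1 and 3 it was -4.01 and -4.16. With normexp the change was -2.36.

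Tap1 was at -4.57, -3.46, -3.74, -5.34 and -4.73 in 2i/LIF, -2.90, -2.91 and -3.66 in KOSR/LIF, and -2.32, -3.14 and -2.01 in serum/LIF. The 2i/LIF arrays lay below those of serum/LIF, and replicates 1 and 4 were not well above background. The log2 change was -1.88 ± 0.43 (adjusted p = 0.0097), or -1.66 with dim signals raised. Within scan day 1 it was -1.81 and did not pass, and within scan day 3 it was -2.64. With normexp it was -0.62 and did not pass (adjusted p = 0.29), and it passed neither without serum/LIF replicate 3 nor without 2i/LIF replicates 1 and 5 together (adjusted p = 0.056 in each case).

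Psmb9 and Tap1 start back to back on opposite strands of chromosome 17, and the 225 bases between their starts are shown with the Psmb8 promoter because all 3 genes fell. The shared stretch is chr17:34187331-34187555, read on the plus strand towards Tap1, and the Psmb8 window is chr17:34197945-34198194 (plus strand), both from RefSeq on GRCm38.p6.
Tap1 and Psmb9: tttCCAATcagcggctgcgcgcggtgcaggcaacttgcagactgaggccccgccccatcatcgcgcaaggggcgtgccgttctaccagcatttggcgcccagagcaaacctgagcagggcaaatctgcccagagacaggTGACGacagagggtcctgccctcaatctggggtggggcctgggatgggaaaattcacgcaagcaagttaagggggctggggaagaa
Psmb8: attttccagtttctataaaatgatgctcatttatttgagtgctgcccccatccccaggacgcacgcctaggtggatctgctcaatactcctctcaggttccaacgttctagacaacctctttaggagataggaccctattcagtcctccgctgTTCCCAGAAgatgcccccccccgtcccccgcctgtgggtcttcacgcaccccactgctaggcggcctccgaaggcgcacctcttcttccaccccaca
Capitals mark a CCAAT box and TGACG in the shared stretch, and in Psmb8 a match to the gamma-activated site (TTCNNNGAA), which 7.02% of the 32851 windows held. Tapbp and Psmb10 also had a promoter entry, and Tap2 and Nlrc5 had none. Tapbp, which did not pass, held CCAAT boxes 248 and 165 bases before its start, and Psmb10, which fell, held none of the motifs searched.

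Tapbp was at 1.40, 1.03, 1.29, 1.63 and 0.83 in 2i/LIF, 1.04, 0.68 and 0.70 in KOSR/LIF, and 1.56, 0.58 and 1.68 in serum/LIF. Serum/LIF replicate 2 was the lowest of all 11 arrays and replicates 1 and 3 were among the highest 3. The change in 2i/LIF against serum/LIF was -0.04 ± 0.29 (adjusted p = 0.96). None of 7 other tested genes for peptide loading and chaperones of the endoplasmic reticulum passed in any comparison. Calr, which encodes the loading chaperone calreticulin, was at 0.30 ± 0.26 in 2i/LIF against serum/LIF. Erap1, the peptide-trimming aminopeptidase gene, was well above background on 1 array and was not tested.

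Nlrc5 was read by 2 probes that differed. The one called brighter here had the higher mean over all 11 arrays, and it stood for the gene. Its means in KOSR/LIF and serum/LIF, -3.51 and -3.87, were below those of the other probe, -3.11 and -3.41. On the brighter one the levels were -3.70, -4.91, -3.99, -3.68 and -3.18 in 2i/LIF, -3.57, -4.11 and -2.84 in KOSR/LIF, and -3.66, -4.04 and -3.91 in serum/LIF, with overlap of all media. Its change in 2i/LIF against serum/LIF was -0.03 ± 0.38 (adjusted p = 0.98), or 0.20 with dim signals raised. On the other probe the levels were -5.62, -5.31, -5.68, -3.42 and -5.87 in 2i/LIF, -3.20, -3.60 and -2.53 in KOSR/LIF, and -2.67, -4.16 and -3.40 in serum/LIF. In 2i/LIF replicate 4 alone was well above background and lay inside the serum/LIF range. That probe gave -1.77 ± 0.54 (adjusted p = 0.045 in the fit over probes), or -1.07 with dim signals raised.

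Markers of other cell types that a culture could hold were examined beside these results. Of 12 fibroblast markers, 5 to 8 were well above background on 2i/LIF arrays, 5 to 8 on KOSR/LIF arrays and 8 to 10 on serum/LIF arrays. Their summed intensity, in multiples of the array's 75th percentile, was 2.00 to 2.81 in 2i/LIF, 8.04 to 14.4 in KOSR/LIF and 5.36 to 14.8 in serum/LIF, and all 2i/LIF arrays lay below all others. Of the 9 tested, 4 passed as lower in 2i/LIF against serum/LIF (median log2 change -1.66) and 4 in 2i/LIF against KOSR/LIF (median -2.14). Between KOSR/LIF and serum/LIF their median was 0.44, with 1 higher and none lower. Dcn was not well above background on any 2i/LIF array and was on all others, and Fap and Prrx1 were on no array. The summed level of 11 leukocyte markers was 17.4 to 29.9 in 2i/LIF, 9.59 to 140 in KOSR/LIF, where replicate 3 was the highest, and 14.1 to 15.3 in serum/LIF. Itgam had the highest mean level of this list in every medium (3.75, 4.42 and 3.43 in the same order) and weighs heavily in these sums. Of these, Adgre1, Csf1r, Itgam, Laptm5 and Fcer1g were well above background on all 11 arrays and Ptprc on 10, whereas Lyz2 and Tyrobp were on none. Of the 8 tested, 2 were higher and none lower in 2i/LIF against serum/LIF. Endothelial markers summed to 8.62 to 13.3 in 2i/LIF, 7.61 to 26.5 in KOSR/LIF and 7.99 to 12.3 in serum/LIF, and extraembryonic endoderm markers to 10.6 to 20.3, 6.36 to 45.4 and 12.8 to 20.0 in the same media. Kdr and Lama1 had the highest mean level of their lists in every medium, so they weigh heavily in these sums. Mean levels in 2i/LIF, KOSR/LIF and serum/LIF were 3.39, 3.40 and 2.98 for Kdr and 3.81, 3.44 and 3.67 for Lama1. Although the sums overlapped, single markers of both types were lower in 2i/LIF. Of 6 endothelial markers tested, 3 were lower and none higher in 2i/LIF against serum/LIF (median -1.24), 2 were lower in KOSR/LIF against serum/LIF (median -0.11) and 3 in 2i/LIF against KOSR/LIF (median -0.91). Of 9 extraembryonic endoderm markers tested, 2 were lower and none higher in 2i/LIF against serum/LIF (median -0.75), and 7 were lower in 2i/LIF against KOSR/LIF (median -2.98). Between KOSR/LIF and serum/LIF 1 of the 9 was higher (median 1.76). Of all genes, 9.98% passed as lower and 6.75% as higher in 2i/LIF against serum/LIF. The shares were 2.21% and 2.37% in KOSR/LIF against serum/LIF, and 8.72% and 5.95% in 2i/LIF against KOSR/LIF. Dcn, Tie1 and Sox7 were well above background on no 2i/LIF array, so they were tested only through the media where they are high. The part of the cells these lists mark in the results was not tested.

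In KOSR/LIF, Tap2 and Psmb8 were lower than in serum/LIF and the other 8 genes did not pass. Of all genes, 2.21% passed as lower and 2.37% as higher. Tap2 fell by 1.99 ± 0.45 on the log2 scale (adjusted p = 0.029), or 3.98-fold, and Psmb8 by 2.14 ± 0.50 (adjusted p = 0.034), or 4.42-fold. B2m was at -1.21 ± 0.48 (adjusted p = 0.20). For these 3 genes the KOSR/LIF arrays lay below all serum/LIF arrays, as they did for 16.0% of all genes. The changes of the other 7 genes ran from -0.66 for Tap1 to 0.36 for Nlrc5, and the median of all 10 was -0.50, beside -0.03 over all genes.

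Both calls in KOSR/LIF against serum/LIF depended on single arrays. Neither gene was well above background on KOSR/LIF replicate 3, and without that array Tap2 stood at -1.59 (adjusted p = 0.080) and Psmb8 at -1.74 (adjusted p = 0.10). Both calls were also lost without serum/LIF replicate 1 (adjusted p = 0.10 for Tap2 and 0.14 for Psmb8) or 3 (adjusted p = 0.11 and 0.13). Without KOSR/LIF replicate 1 Tap2 did not pass (adjusted p = 0.059), and without KOSR/LIF replicate 2 Psmb8 did not (adjusted p = 0.077). Within scan day 1 Tap2 was at -1.26 (adjusted p = 0.080) and Psmb8 at -1.41 (adjusted p = 0.23). With scan day or slide as a block Psmb8 did not pass (-1.72, adjusted p = 0.066, and -1.48, adjusted p = 0.15), whereas Tap2 did (-1.65, adjusted p = 0.0486, and -1.23, adjusted p = 0.0471). By line, KOSR/LIF minus serum/LIF for Tap2 was -2.35 in E14, -2.81 in HVJu5.1 and -0.81 in HVJu9.3, and for Psmb8 it was -2.19, -3.32 and -0.91. These values take each array's line from the labels, and the HVJu5.1 value rests on KOSR/LIF replicate 3. Only the HVJu9.3 arrays shared a scan day, so differences between lines and between scan days cannot be told apart here. In the deposited value table the columns labelled KOSR/LIF replicates 1 and 2, which are E14 and HVJu9.3 samples, each match the other's array, so which of those values belongs to which line is uncertain.

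**Figure D2:**
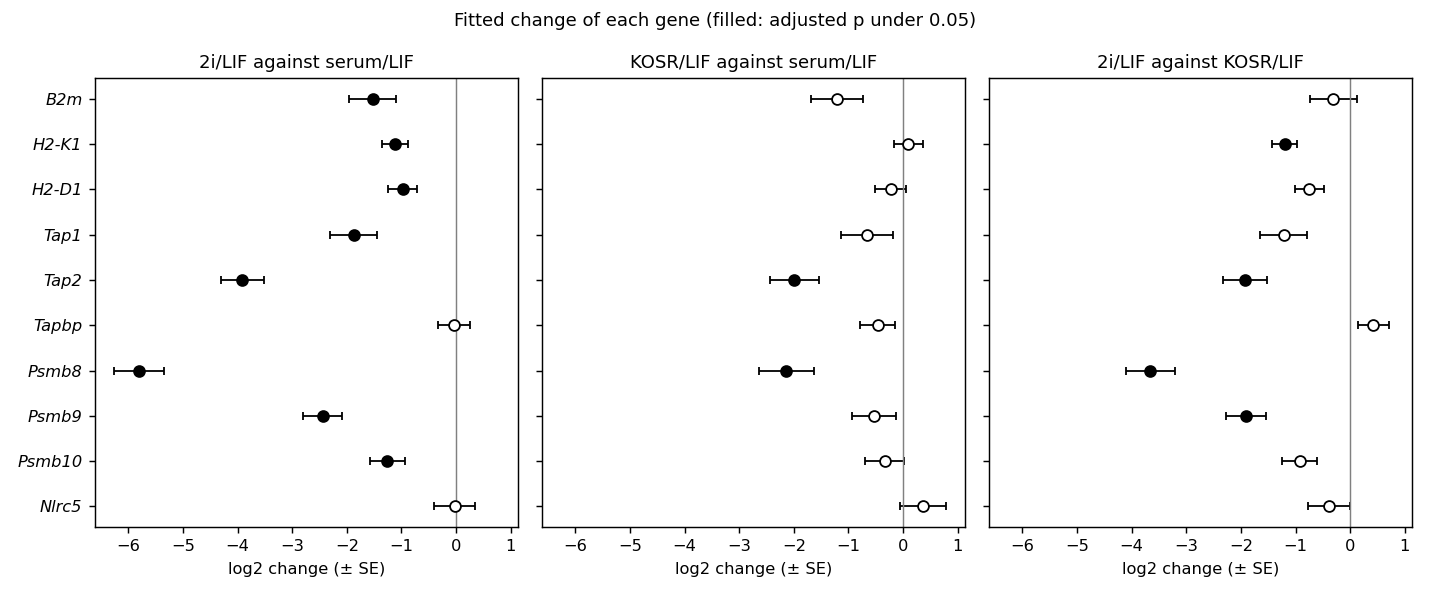
The log2 change of each gene (horizontal axis, ± SE) is plotted for 2i/LIF against serum/LIF, KOSR/LIF against serum/LIF and 2i/LIF against KOSR/LIF, with filled points for an adjusted p under 0.05. From left to right, 8, 2 and 4 of the 10 genes are filled, all at negative changes, and Psmb8 has the lowest value in each panel.

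Against KOSR/LIF, 4 of the 10 genes passed as lower in 2i/LIF, where 8.72% of all genes passed as lower. Psmb8 fell by 3.66 ± 0.45 on the log2 scale (adjusted p = 0.00030), or by 2.94 with dim signals raised. Tap2 fell by 1.92 ± 0.40 (adjusted p = 0.0074), Psmb9 by 1.91 ± 0.36 (adjusted p = 0.0043) and H2-K1 by 1.20 ± 0.24 (adjusted p = 0.0052). For these 4 genes all 2i/LIF arrays lay below all KOSR/LIF arrays, as for 10.6% of all genes. The calls on H2-K1 and Tap2 each held in 26 of 28 alternatives, with a highest adjusted p of 0.077 and 0.069. Among the losses were that of H2-K1 with normexp (adjusted p = 0.059) and that of Tap2 with quantile normalization (adjusted p = 0.053). The other H2-K1 probe was at -0.86 ± 0.29 and did not pass (adjusted p = 0.078).

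Of the genes that did not pass in 2i/LIF against KOSR/LIF, Tap1 was at -1.21 ± 0.43 (adjusted p = 0.085), Psmb10 at -0.93 ± 0.32 (adjusted p = 0.079) and H2-D1 at -0.75 ± 0.26 (adjusted p = 0.082). Without KOSR/LIF replicate 3, H2-D1 passed (adjusted p = 0.024), as did Psmb10 (-1.22, adjusted p = 0.034). Psmb10 also passed without 2i/LIF replicate 4 (adjusted p = 0.026), and Tap1 without 2i/LIF replicate 2 (adjusted p = 0.036). B2m was at -0.31 ± 0.43, Nlrc5 at -0.39 ± 0.38 on its brighter probe and Tapbp at 0.43 ± 0.29. The other Nlrc5 probe was at -2.07 ± 0.54 (adjusted p = 0.026 in the fit over probes), or -1.37 with dim signals raised. The median of the 10 genes was -1.06, beside 0.02 over all genes. Within scan day 1, Psmb8 was at -4.25, Tap2 at -2.75, Psmb9 at -2.53 and H2-K1 at -1.50, and each passed. Scan day 2 held 2i/LIF replicate 2 and KOSR/LIF replicate 3, whose single difference was -3.23 for Psmb8, -1.08 for Tap2, -1.46 for Psmb9 and -1.02 for H2-K1.

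By mean level, 9 of the 10 genes were lowest in 2i/LIF, and Tapbp was lowest in KOSR/LIF. Serum/LIF was highest for 8 genes, and KOSR/LIF for H2-K1 and Nlrc5. In this order, neighbouring media passed as different for Psmb8 and Tap2 at both steps, and for H2-K1 and Psmb9 at the step above 2i/LIF. For B2m, H2-D1, Tap1 and Psmb10 no neighbouring pair passed, although the lowest and highest media did. Tapbp, and Nlrc5 on its brighter probe, passed between no media. The comparisons share arrays, so their values are not independent of each other.

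Psmb9, Tap1, Psmb8 and Tap2 are neighbours in the class II region of chromosome 17, which carries 7 of the 10 genes. Of the 10 nearest genes with a probe on each side, 15 of 20 were tested. None was lower in 2i/LIF against serum/LIF, whereas the class II genes H2-Oa, which encodes a chain of the peptide-exchange inhibitor H2-O (2.25 ± 0.50, adjusted p = 0.0087), and H2-Eb1, a classical class II chain gene (2.80 ± 0.59, adjusted p = 0.0062), rose. The median change of the 15 was 0.24. Over all genes, the shares in that comparison were 9.98% lower and 6.75% higher. In KOSR/LIF against serum/LIF none of the 15 passed. H2-Ab1, a class II chain gene, was lower in 2i/LIF against KOSR/LIF (-1.98, adjusted p = 0.030), and the butyrophilin-like gene Btnl1, named after its value was seen, was higher (2.34, adjusted p = 0.0024).

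**Figure D3:**
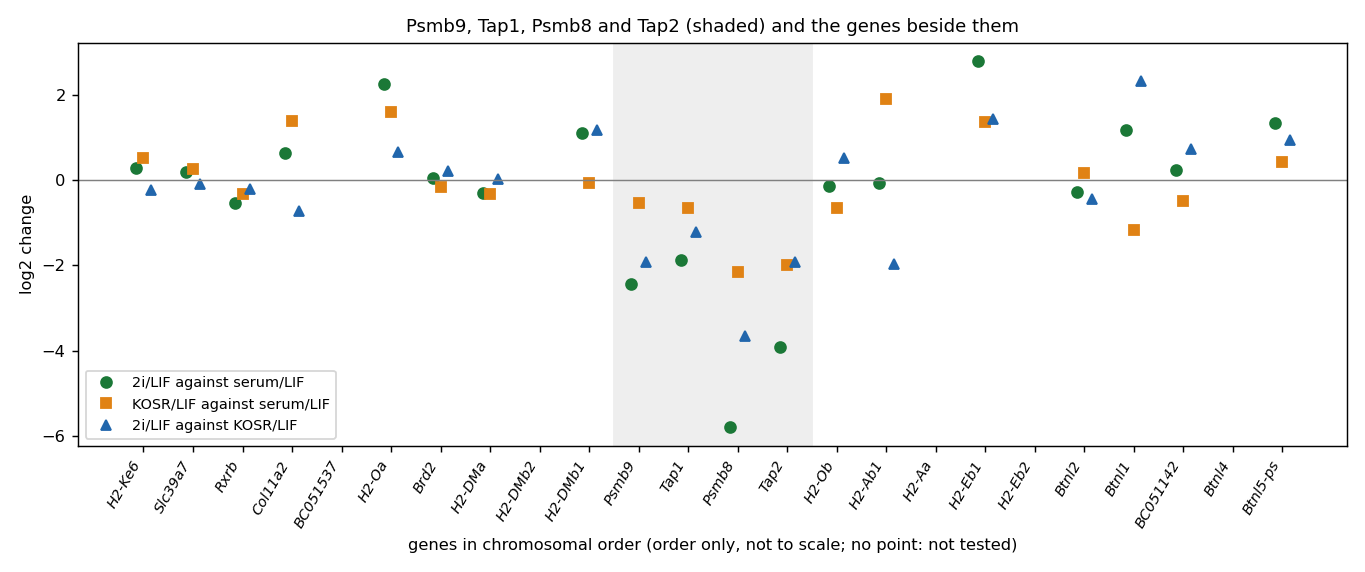
The log2 change (vertical axis) is plotted for genes in chromosomal order around Psmb9, Tap1, Psmb8 and Tap2 (shaded), with circles for 2i/LIF against serum/LIF, squares for KOSR/LIF against serum/LIF and triangles for 2i/LIF against KOSR/LIF. All 12 shaded values are negative, and of the 15 neighbours tested none passed as lower in either comparison with serum/LIF.

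The wider pathway moved in part. In 2i/LIF against serum/LIF, where 6.75% of all genes passed as higher and 9.98% as lower, 4 of 13 other class I and class I-like genes fell and 3 rose. H2-M3, which presents formylated peptides, fell by 3.47 ± 0.43 on the log2 scale, H2-Q7, a nonclassical class I gene, fell by 1.30 ± 0.24, and H2-Q1 was at least 2.29-fold lower. H2-Q1 was well above background on the 3 serum/LIF arrays and on no other, so it was tested only through the medium where it is high, and the count of 4 includes it. Cd1d1, which presents lipids, rose by 1.47 ± 0.34. H2-M3 and H2-Q7 were also lower in 2i/LIF against KOSR/LIF (-3.08 and -1.27). Of 8 tested class II genes, H2-Eb1 and H2-Oa rose in 2i/LIF against serum/LIF. Ciita, the class II transactivator gene, was at 1.11 ± 1.14.

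Among 23 tested interferon-stimulated genes, 8 fell and 3 rose in 2i/LIF against serum/LIF, with a median of -1.02. The shares over all genes in that comparison were 9.98% lower and 6.75% higher. The guanylate-binding protein gene Gbp2 was at -5.49, -5.38, -4.50, -4.77 and -4.01 in 2i/LIF, -0.34, -0.38 and -1.36 in KOSR/LIF, and 2.30, 0.72 and 2.51 in serum/LIF. As for Psmb8 and Tap2, the 3 media did not overlap. Gbp2 fell by 6.68 ± 0.47 in 2i/LIF against serum/LIF (adjusted p = 4.93e-06), or -6.11 with dim signals raised. Its change was -2.54 ± 0.52 in KOSR/LIF against serum/LIF (adjusted p = 0.020) and -4.14 ± 0.47 in 2i/LIF against KOSR/LIF. Gbp3, of the same family, was at least 19.6-fold lower in 2i/LIF against serum/LIF. It was well above background on no 2i/LIF array, so it was tested only through the media where it is high. The count of 8 includes it. Oasl2, of the oligoadenylate synthetase family, fell by 4.66 ± 0.53 (-3.44 with dim signals raised). Oas1a, of that family too, rose by 3.12 ± 0.50. In KOSR/LIF against serum/LIF 2 of the 23 fell, Gbp2 and the ubiquitin-like modifier gene Isg15 (-1.86 ± 0.45, adjusted p = 0.038), where 2.21% of all genes passed as lower.

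**Figure D4:**
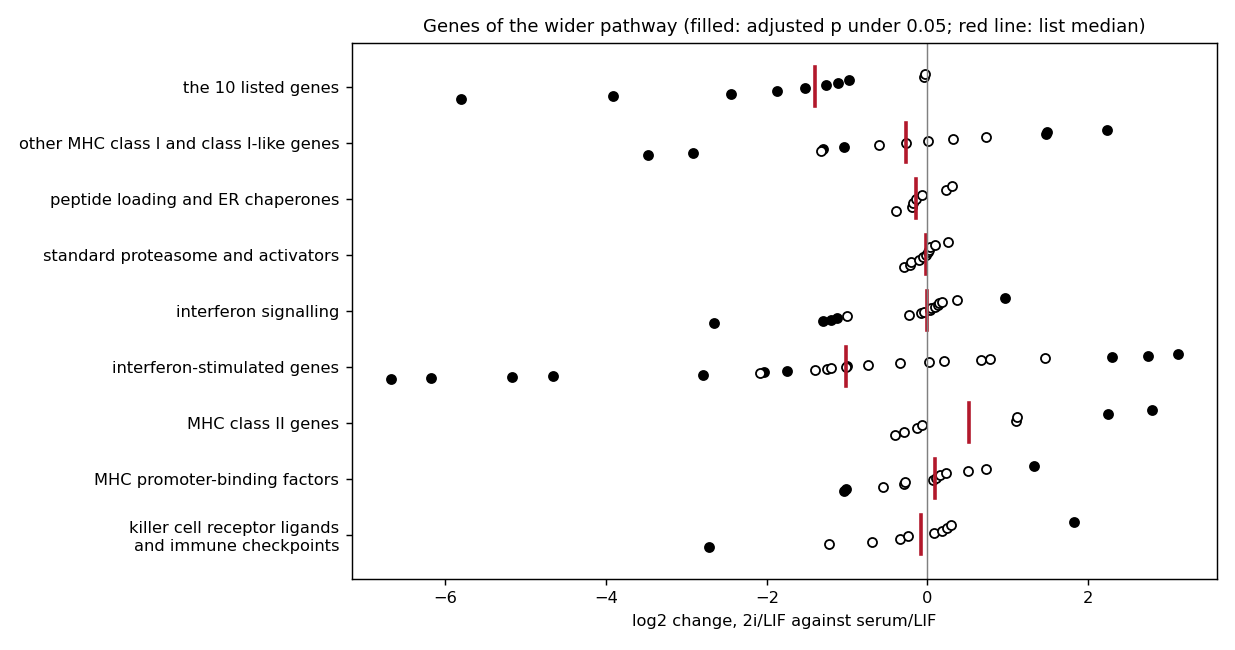
Each row is a gene list and each point a tested gene at its log2 change in 2i/LIF against serum/LIF (horizontal axis), filled where the adjusted p was under 0.05, with a red line at the list median. The median is -1.39 for the 10 genes described here, -1.02 for interferon-stimulated genes and between -0.26 and 0.52 for the other 7 lists.

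Of 16 tested genes of interferon signalling, 4 fell and 1 rose in 2i/LIF against serum/LIF, where 9.98% of all genes passed as lower and 6.75% as higher. The interferon gamma receptor gene Ifngr1 changed by -1.20 ± 0.24, the type I receptor gene Ifnar1 by -1.30 ± 0.39 and the transcription factor gene Irf8 by -2.66 ± 0.52. Stat2, which encodes a transducer of type I interferon, rose by 0.97 ± 0.23. Irf2 also fell, by 1.13 ± 0.35 (adjusted p = 0.049), but its probe was well above background on 1 array of each medium, and with dim signals raised the change was -0.28. Irf1, which encodes an activator of class I and immunoproteasome genes, was at -1.01 ± 0.34 (adjusted p = 0.068) with all 2i/LIF arrays below those of serum/LIF. In 2i/LIF against KOSR/LIF, 8.72% of all genes passed as lower and 5.95% as higher. There Ifngr1 (-1.98), Irf8 (-2.37) and Irf2 (-1.44) fell and Irf9, the partner of Stat2, rose (1.17). The same limit holds for Irf2 here, whose change was -0.60 with dim signals raised. In both comparisons only 2i/LIF signals were raised, although the Irf2 probe was also dim on other arrays, so the raised values may understate its change.

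Of 12 tested genes for factors that bind class I and class II promoters, 2 fell and 1 rose in 2i/LIF against serum/LIF. These counts are near the shares of all genes in that comparison, 9.98% lower and 6.75% higher. The NF-kappaB precursor genes Nfkb1 and Nfkb2 changed by -1.03 ± 0.29 and -1.01 ± 0.26, and Relb, which encodes a partner of the Nfkb2 product, rose by 1.32 ± 0.22. Nfkb2 was also lower in KOSR/LIF against serum/LIF (-1.21 ± 0.30). Between 2i/LIF and KOSR/LIF, Nfkb1 fell in 2i/LIF (-1.55), while Relb (2.21) and the inhibitor gene Nfkbia (1.07) rose. Of 10 tested ligands of killer cell receptors and immune checkpoints, 1 fell and 1 rose in 2i/LIF against serum/LIF, also near the shares of all genes. Cd274, the gene of the checkpoint ligand PD-L1, fell (-2.73 ± 0.54, or -1.62 with dim signals raised). Ulbp1, a ligand gene of the killer receptor NKG2D, rose (1.82 ± 0.49, or 0.73 with dim signals raised). No gene of that list passed in the other comparisons.

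Across the 11 arrays, which fall into the 3 media and share their scaling, the 10 genes varied together to different degrees. The median Pearson's r of a gene with the other 9 was 0.88 for Psmb8, 0.86 for Tap2, 0.84 for Psmb9, 0.81 for H2-D1, 0.76 for H2-K1 and Tap1, 0.72 for Psmb10 and 0.64 for B2m. It was 0.04 for Nlrc5 and 0.00 for Tapbp. The mean of the 10 genes, each centred on its own mean, was -1.08 to -0.56 in 2i/LIF, -0.09 to 0.60 in KOSR/LIF and 0.70 to 1.40 in serum/LIF. Of all other genes tested, those most like this mean by Pearson's r over the 11 arrays were Gbp2b (0.983), Bin1 (0.982), Fosl2 (0.982), Anxa3 (0.980) and 3830417A13Rik (0.977). Gbp2b, another guanylate-binding protein gene, was at -6.92 in 2i/LIF against serum/LIF and -2.64 in KOSR/LIF against serum/LIF. The genes most like B2m alone were Gtdc1 (0.942), Nt5c (0.938), Rab32 (0.921), Fam171a1 (0.917) and Nox4 (0.913).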

How the data were processed

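RNA of 11 samples was extracted with Qiagen RNeasy kits and labelled with Cy3, per the labels' protocols. Per the file headers, the scanner files hold spot intensities from which Agilent Feature Extraction 11.0.1.1 had subtracted background. The authors' deposited value table also holds intensities, made by steps that are not stated in the labels or headers. The 59305 non-control spots held 55681 probes, of which 33 were left out because of flagged spots. By RefSeq accession, 27642 were named through a gene table of GRCm38.p6, used for names and gene order only, since the array design used mm9. The log2 of each intensity minus the array's 75th percentile was tested for probes well above background on at least 3 of 11 arrays. The probe with the highest mean stood for a gene. One model of the 3 media over all arrays (limma 3.58.1, R 4.3.3, two-sided, Benjamini-Hochberg over 16277 genes, threshold 0.05) had 8 residual degrees of freedom. Raised dim signals, used in values so named, concern only the medium with the lower mean. There, a signal below its array's lowest well-above-background signal was set to that floor. Folds written "at least" use the same floor, where no array of the dimmer medium was well above background.

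Members and gene lists were chosen with earlier results of these data known. All 10 members were named, and of each other list up to 3 genes with the smallest adjusted p among those that passed and 1 in the other direction, plus 10 fixed genes, of which 1 is not reported here. On simulated data with 16277 genes, the comparison of 2i/LIF with serum/LIF recovered 90% of true log2 changes of 2 and 14% of changes of 1. That of KOSR/LIF with serum/LIF recovered 70% and 8%, and that of 2i/LIF with KOSR/LIF 74% and 18%. The simulation changed 50 genes at each size, with independent noise and no background floor. In the real data 1624 genes passed as lower and 1098 as higher in 2i/LIF against serum/LIF, so these shares may not carry over. The labels do not say that samples of 1 line were grown separately, so p-values cover only the spread between these samples, which may be technical. The number of arrays limits the precision. Alternatives changed the background correction, scaling, filter, probe choice, blocks and samples.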

Additional observations from a re-analysis of the deposited data

Results flagged for a closer look

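The Nlrc5 probe with the lower mean over all arrays had 1 2i/LIF array far from the other 4. Replicate 4 was at -3.42, whereas the others lay between -5.87 and -5.31, and the gap exceeded Dixon's 95% limit for 5 samples (0.71 of the range). That array was the only 2i/LIF array on which the probe was well above background. About 1 in 20 groups exceeds this limit by chance.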

How the results depend on the processing

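Psmb8, Tap2 and Psmb9 passed as lower in 2i/LIF against serum/LIF under all 29 alternatives, at -6.32 to -2.88, -4.25 to -2.36 and -2.71 to -1.66. H2-K1 passed in 27, Tap1 in 24, and B2m, H2-D1 and Psmb10 in 22 each, all with the same sign throughout. In 2i/LIF against KOSR/LIF, Psmb8 and Psmb9 passed in all 28 alternatives and H2-K1 and Tap2 in 26. In KOSR/LIF against serum/LIF, Tap2 passed in 18 of 28 and Psmb8 in 14.

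For 2i/LIF against serum/LIF the number of genes that passed, 8, became 5 with normexp, 4 within scan day 3 and 4 to 8 without single arrays, with 5 without serum/LIF replicate 1 or 2 and 4 without serum/LIF replicate 3. For KOSR/LIF against serum/LIF the count of 2 became 1 with normexp, 1 with the deposited value table, 1 with scan day or slide as a block, and 0 with quantile normalization, the value table without its KOSR/LIF replicate 3 column, no filter on dim probes, only the 2 media compared, or within scan day 1. Without single arrays it ranged from 0 to 2. For 2i/LIF against KOSR/LIF the count of 4 became 7 with the deposited value table, whose columns did not all match their arrays, and 4 to 6 without single arrays, with 6 without KOSR/LIF replicate 3. The cell line as a block, per titles or source names, kept the counts at 8, 2 and 4. Replicate numbers do not mark the same line across media, and deviations of same-numbered arrays correlated at -0.20 to 0.18. With replicate number as a block the counts were 4, 0 and 3.

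Some changes that had not passed turned sign. In 2i/LIF against serum/LIF, Tapbp was at 0.16 with slide as a block, 0.39 within scan day 1, 0.0009 and 0.0077 with the line per titles and per source names as a block, 0.038 without 2i/LIF replicates 1 and 5, and -0.39 to 0.16 without single arrays. Nlrc5 was at 0.060 with normexp, 0.077 with slide as a block, 0.010 and 0.47 within scan days 1 and 3, and -0.20 to 0.23 without single arrays. In KOSR/LIF against serum/LIF, H2-K1 was at -0.11 with normexp, -0.043 as the mean of its probes, -0.18 on its other probe and -0.050 to 0.26 without single arrays. H2-D1 was at 0.016 with the deposited value table, 0.059 without its KOSR/LIF replicate 3 column, 0.0080 with scan day and 0.17 with slide as a block, 0.14 within scan day 1 and -0.38 to 0.026 without single arrays. Tap1 was at 0.10 with normexp, Psmb9 at 0.063 with slide as a block and 0.042 within scan day 1, and Psmb10 at 0.0014 with the value table without its KOSR/LIF replicate 3 column. Nlrc5 was at -0.10 with quantile normalization and -0.060 with the value table without its KOSR/LIF replicate 3 column, and in 2i/LIF against KOSR/LIF it was at 0.035 with slide as a block and 0.0020 within scan day 1. The cause was not tested.

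Normexp used the median spot signal, a version chosen after the data were seen, because the planned version on the mean signal could not be run. The value table without its KOSR/LIF replicate 3 column was also chosen after the data were seen. Scan day 2 held 1 array of each of 2 media and gave no test. The percentile over probes detected on all arrays moved the median of all genes to -0.11 in 2i/LIF against KOSR/LIF, and leaving out the filter moved it to 0.15 in KOSR/LIF against serum/LIF and -0.15 in 2i/LIF against KOSR/LIF. Signal close to background limits the folds of Psmb8, Tap1 and Nlrc5.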
